A study of Mus musculus with 7 samples.

Results

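The genes described here are 38 genes that mark the G2 phase and mitosis, the part of the cell cycle in which a cell with copied chromosomes divides. They were chosen by symbol among 56422 gene symbols in the table, and all 38 were present. The rule is a list of symbols with no cutoff on expression, drawn up with earlier results of these data known. Messenger RNA had been sequenced in 7 mouse libraries labelled as CD8+ T cells, taken from the ascites of models of peritoneal metastasis. Of these, 3 came from mice treated with propionate and butyrate together and 4 from untreated controls, with no other agent named in the sample labels. The labels name no strain, age, sex, tumour line or pooling, and do not say whether each library came from its own animal. The p-values therefore cover only the variation among these samples, which may be technical. Values are given in the order treated 1, treated 2 and the third treated library, and control 1 to 4. The third treated library is a column whose number matches no treated sample in the labels.

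Propionate and butyrate are short-chain fatty acids that gut bacteria make from fibre, and butyrate is known as an inhibitor of histone deacetylases. Cells enter mitosis when cyclins A and B activate the kinase Cdk1, and leave it when the anaphase-promoting complex marks those cyclins and securin for destruction. Between these steps, kinesins and microtubule-binding proteins build the spindle, kinetochores attach chromosomes to it, and checkpoint kinases hold the cell back until every chromosome is attached. Messenger RNAs of these genes build up in G2 and are scarce in resting cells, so in tissue they are read as a sign of dividing cells. Activated CD8+ T cells divide quickly, but so do tumour cells, and a bulk library does not say which cells the transcripts came from.

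Several features of the libraries bear on every level below. The unit of expression, TPM, corrects for transcript length and sums to the same total in each library, so sequencing depth was unknown. Mitochondrially encoded genes held 32.9% of TPM in the third treated library, against 13.6% to 18.2% in the other 6, and 7 nuclear pseudogenes of mitochondrial sequence held 20.2%, against 8.52% to 11.1%. Across all genes tested the median log2 fold change was -0.24, so treated values sat lower in general on this scale. That shift was mostly tied to the third treated library and its mitochondrial share. The median was -0.08 without that library, and -0.05 when mitochondrial genes and pseudogenes were left out and libraries rescaled. The labelled cell type was checked on 15 T cell markers, all detected, whose summed TPM was 689 to 2921 in treated and 141 to 246 in control libraries. The summed level of 11 macrophage markers was 3368 to 4125 TPM in treated and 6155 to 14944 TPM in control libraries. That of 12 epithelial and mesothelial markers was 858 to 1635 TPM in treated and 2273 to 2735 TPM in control libraries. In every library the macrophage sum was above the T cell sum, but most of it came from Apoe and Lyz2. In treated libraries these were at 1417 to 2316 TPM and 1065 to 1656 TPM. Without these genes the macrophage sum was below the T cell sum in treated 1 and treated 2. It stayed above the T cell sum in the third treated library and in every control library. The epithelial and mesothelial sum was also above the T cell sum in every control library. The order of the sums depended on the genes summed in treated 1 and treated 2, and it does not rank the cell types by amount. In control libraries the T cell sum was below both other sums, with or without Apoe and Lyz2.

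The mitotic genes were lower after propionate and butyrate, and none was higher. Of the 38, all of which passed the filter on low values, 23 fell and 0 rose in limma's test with Benjamini-Hochberg adjustment over 14967 genes, where 7.59% of all genes fell and 4.30% rose. All 38 had a negative log2 fold change, from -1.38 to -0.16, although Cenpe turned to 0.02 with median-of-ratios scaling. The median of the 38 was -0.87, a difference of -0.63 from the median of all genes tested. In 30 of the 38, every treated library lay below every control library, where 25.7% of all genes tested showed that order. In 0 of the 38 the order was the opposite, which 4.82% of all genes showed. Summed over the 38, the level was 379, 418 and 222 TPM in treated libraries, against 586, 668, 599 and 543 TPM in control libraries. The highest treated sum thus stayed below the lowest control sum, and the third treated library stood well below the other treated ones. Fewer dividing cells and less mitotic RNA per cell cannot be told apart in bulk libraries.

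The low level of the third treated library moved with its mitochondrial share. When mitochondrial genes and pseudogenes were left out and each library was rescaled to sum to 1000000, the 38 genes summed to 526, 561 and 477 in treated libraries, against 833, 890, 773 and 771 in control libraries. The third library then lay close to the other treated libraries, and the groups still did not overlap. On that scale 25 of the 38 genes fell and 0 rose, where 7.98% of all genes fell and 8.09% rose. The median log2 fold change was -0.75, or -0.70 relative to all genes. Without the third treated library 16 fell, where 4.13% of all genes did. Without it and control replicate 3, an alternative added after the data were seen, 9 fell, where 1.84% of all genes did. With no filter on low values 0 of the 38 passed adjustment, although 29 had an unadjusted p under 0.05. That fit called 7 of 29687 genes in all.

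**Figure D1:**
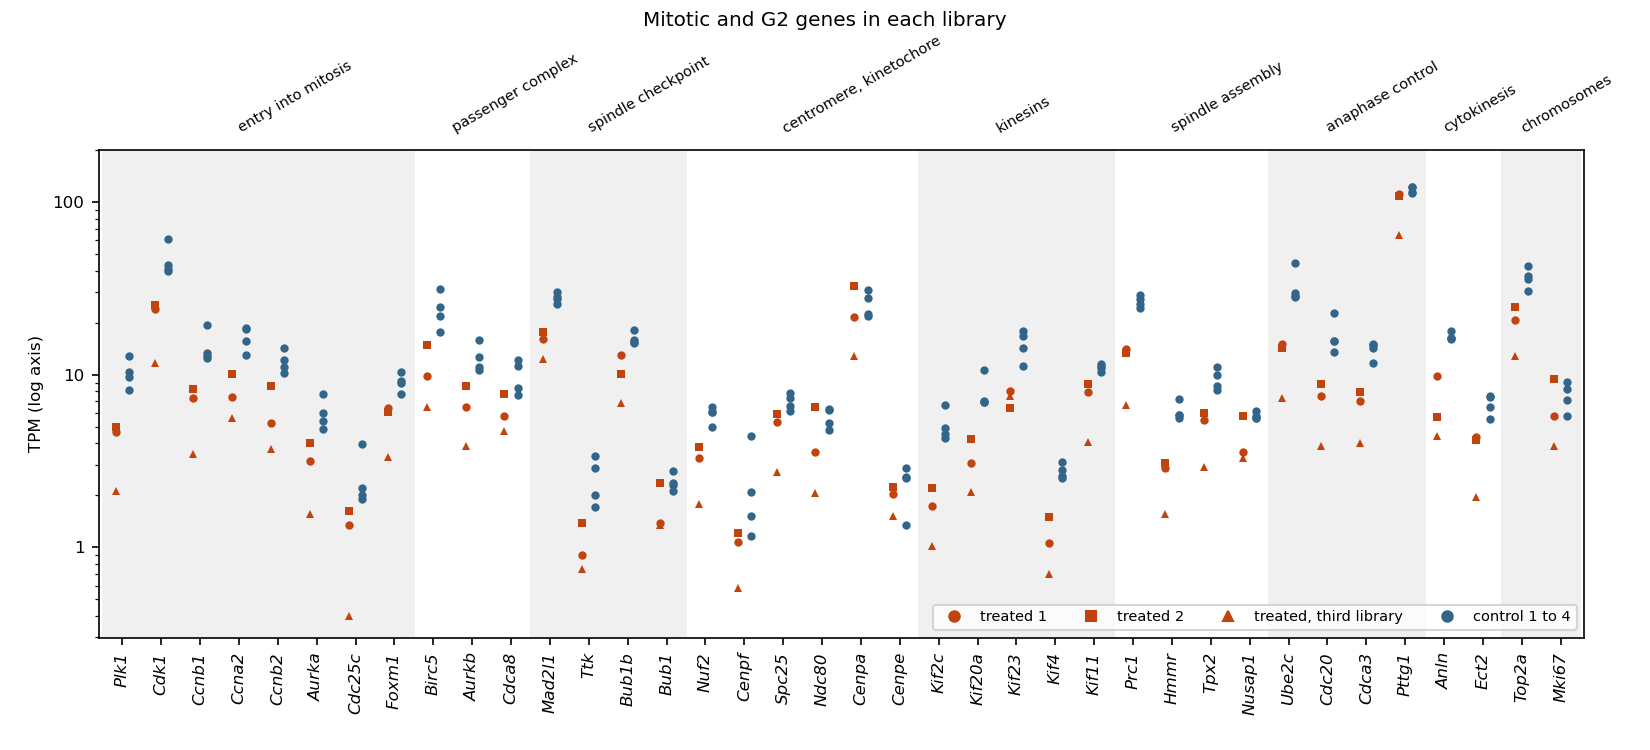
TPM of each gene on a log axis, with genes along the horizontal axis grouped by role and ordered within a role by fold change. Each point is 1 library, treated (red) to the left of control (blue); the triangle is the third treated library, the lowest of the treated libraries in 37 of the 38 genes.

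Promoters of mitotic genes are known to share a pair of short elements. One is the cell cycle genes homology region (CHR, searched as TTTGAA), which the DREAM and MuvB complexes bind, and the other is the CCAAT box (searched as CCAAT), which the factor NF-Y binds. The RefSeq promoter table of build GRCm38.p6, an earlier build than the mm39 of the expression table, held 32 of the 38 genes, each with 250 bases before and 50 after the annotated start. On either strand, TTTGAA lay in 24 of the 32, or 75.0%, against 20.2% of all 27025 symbols in the table and 13.5% of 37 genes of DNA replication. CCAAT also lay in 75.0% of the 32, against 41.1% of all symbols, 59.5% of the DNA replication genes and 64.7% of 17 cell cycle inhibitors. Neither motif was particular to the 38 genes. Of 54 mitosis genes outside the 38, 63.0% held TTTGAA, 66.7% held CCAAT and 46.3% held both. Both lay together in 21 of the 32, and in all 21 a CCAAT box preceded a CHR. That arrangement was found in 65.6% of the mitotic promoters and in 4.29% of all symbols. Of all symbols, 2155, or 7.97%, held both motifs, and 1159 of these had the arrangement. The contrast thus partly restates how often both motifs occur. A match is a description of the letters and not evidence of binding. Forms of the elements with other letters were not searched, so a window without a match may still hold an element.

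The stretches below run from 150 bases before to 20 bases after the annotated start. They show the arrangement in 5 genes that fell and in Mki67, which carries the motifs but did not pass the test. Birc5, also shown, fell and has no exact match to either motif. Capitals mark CHR and CCAAT matches, which read TTCAAA and ATTGG where the match is on the opposite strand.
Ube2c (chr2:164769779-164769948, plus strand): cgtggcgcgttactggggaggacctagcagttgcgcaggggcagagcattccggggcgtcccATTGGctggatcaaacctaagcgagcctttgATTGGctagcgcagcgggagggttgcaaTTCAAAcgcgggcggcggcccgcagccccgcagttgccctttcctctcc
Cdc20 (chr4:118437324-118437493, minus strand): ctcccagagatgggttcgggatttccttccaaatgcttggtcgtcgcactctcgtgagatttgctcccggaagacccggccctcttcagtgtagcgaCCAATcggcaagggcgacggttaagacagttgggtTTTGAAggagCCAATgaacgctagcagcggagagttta
Cdk1 (chr10:69352893-69353062, minus strand): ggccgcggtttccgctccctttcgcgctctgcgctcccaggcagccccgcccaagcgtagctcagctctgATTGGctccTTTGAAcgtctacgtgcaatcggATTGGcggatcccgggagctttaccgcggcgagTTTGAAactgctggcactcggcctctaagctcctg
Ccnb2 (chr9:70421535-70421704, minus strand): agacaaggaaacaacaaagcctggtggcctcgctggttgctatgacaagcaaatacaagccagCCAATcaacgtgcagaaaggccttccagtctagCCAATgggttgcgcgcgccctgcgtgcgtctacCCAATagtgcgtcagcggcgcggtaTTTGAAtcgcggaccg
Prc1 (chr7:80294301-80294470, plus strand): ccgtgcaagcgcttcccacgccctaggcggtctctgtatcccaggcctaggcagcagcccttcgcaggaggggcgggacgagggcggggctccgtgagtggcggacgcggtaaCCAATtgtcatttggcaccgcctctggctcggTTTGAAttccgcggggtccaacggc
Mki67 (chr7:135716360-135716529, minus strand): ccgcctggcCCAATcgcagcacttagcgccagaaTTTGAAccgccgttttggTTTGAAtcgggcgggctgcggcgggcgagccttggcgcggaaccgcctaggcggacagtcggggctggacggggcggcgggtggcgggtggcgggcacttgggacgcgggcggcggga
Birc5 (chr11:117849087-117849256, plus strand): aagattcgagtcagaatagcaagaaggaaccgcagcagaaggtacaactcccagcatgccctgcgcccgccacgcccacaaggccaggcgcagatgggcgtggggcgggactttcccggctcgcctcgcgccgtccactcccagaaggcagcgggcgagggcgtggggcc

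In the Ccnb2 stretch 3 CCAAT boxes stand in a row ahead of the CHR. A pair of CCAAT boxes whose first bases are 30 to 35 bases apart, a spacing chosen after the positions were seen, was present in 9 of the 32 mitotic promoters, or 28.1%, against 1.85% of all symbols. Of 30 CHR matches in the mitotic promoters, 23 began within 60 bases of the start, a window also chosen after the fact, or 76.7%, against 28.2% of 6737 matches in all promoters. Genes with and without a TTTGAA match were among those that fell. With a match, 15 of 24 passed the test in that direction (median log2 fold change -0.90), and without one 4 of 8 did (median -0.62). Among all genes tested that had a promoter in the table, 8.61% of 1521 with a match fell, against 7.81% of 8824 without.

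**Figure D2:**
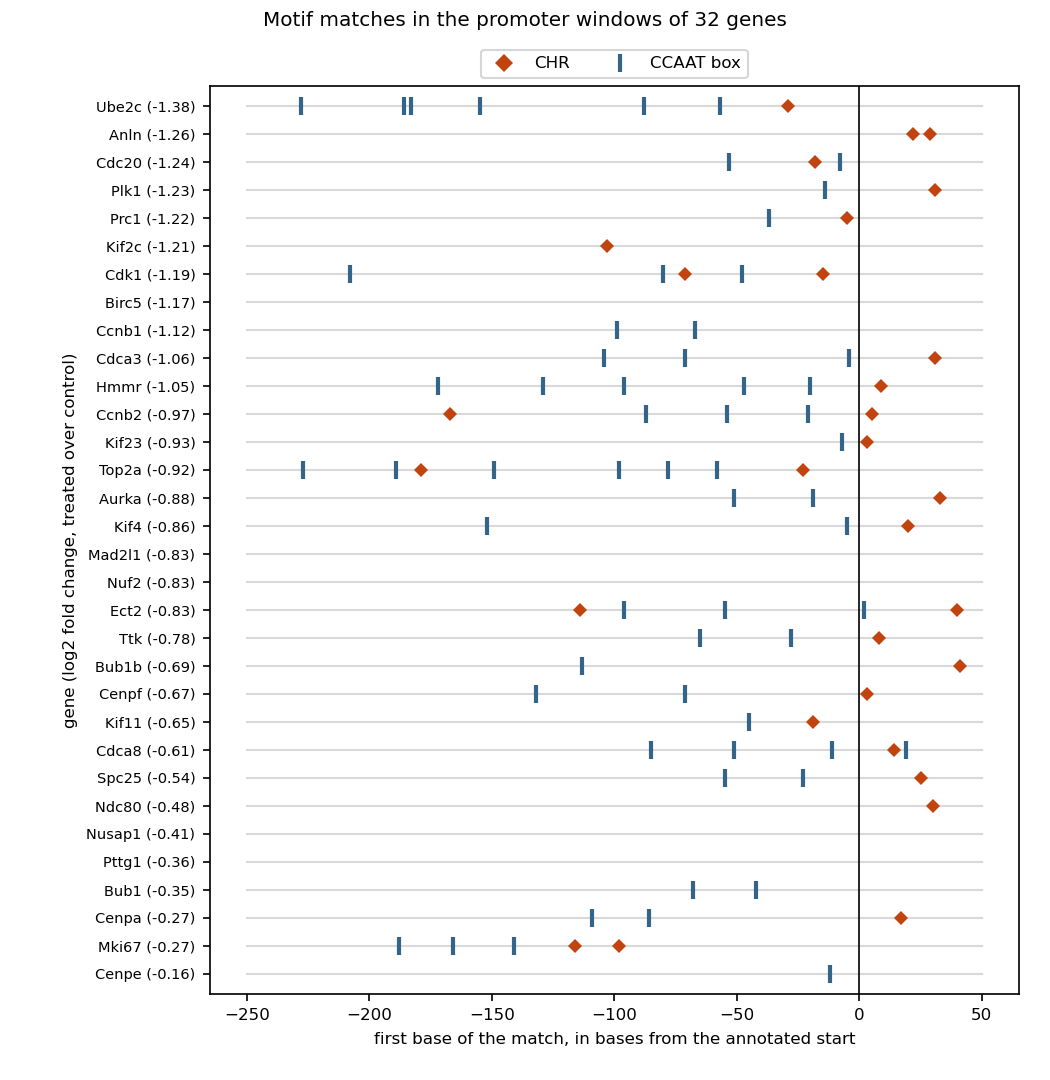
First base of each CHR (red diamonds) and CCAAT (blue bars) match, in bases from the annotated start, in the 32 promoter windows, with genes ordered from the most to the least negative log2 fold change. CHR matches gather around the start with CCAAT boxes ahead of them, among genes with large and with small differences alike.

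Of 8 genes that drive entry into mitosis, 6 fell, where 7.59% of all genes tested did. All 8 had every treated library below every control library, an order that 25.7% of all genes tested showed. Cdk1, the kinase that starts mitosis, was at 24.1, 25.4 and 11.7 TPM in treated libraries, against 43.1, 61.3, 40.8 and 39.6 TPM in control libraries. Its mean was 20.4 ± 7.54 TPM (SD, n = 3) in treated and 46.2 ± 10.2 TPM (SD, n = 4) in control libraries, a log2 fold change of -1.19 (SE 0.26, limma adjusted p = 0.00986). Its reads lay mainly in 2 transcript rows, with means of 9.23 and 9.54 TPM in treated and 23.0 and 18.4 TPM in control libraries, so both rows were lower. Ccnb1, a cyclin B that partners Cdk1, was at 7.29, 8.27 and 3.48 TPM in treated and 12.4, 19.5, 13.3 and 12.8 TPM in control libraries, a log2 fold change of -1.12 (SE 0.27, limma adjusted p = 0.0156). Control 2 was the highest library for both genes, and no treated library reached the lowest control.

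Other regulators of entry kept the same order of groups. Plk1, the Polo-like kinase of centrosomes and spindle poles, was at 4.68, 4.94 and 2.13 TPM in treated and 10.4, 12.9, 9.66 and 8.12 TPM in control libraries, a log2 fold change of -1.23 (SE 0.26, limma adjusted p = 0.00764). Ccna2, the cyclin A of S and G2 phase, fell by 1.02 on the log2 scale, Ccnb2, the second cyclin B, by 0.97, and Aurka, the Aurora kinase of the spindle poles, by 0.88 (limma adjusted p = 0.0116, 0.0231 and 0.0434). Aurka lost its call in 10 of the 17 alternatives other than the replicate block, and with the block (limma adjusted p = 0.203). Among the 10 was the fit without the third treated library (limma adjusted p = 0.0982). Ccnb2 lost its call in 4 of the same 17. Foxm1, the transcription factor that acts through G2 promoters, was at 6.37, 6.09 and 3.33 TPM in treated and 8.92, 10.4, 9.15 and 7.68 TPM in control libraries. Its log2 fold change of -0.71 missed the threshold (limma adjusted p = 0.0628), and it passed with mitochondrial sequence left out (limma adjusted p = 0.0287). Cdc25c, the phosphatase that activates Cdk1, was near the filter at 1.34, 1.62 and 0.40 TPM in treated and 2.01, 1.90, 2.21 and 3.96 TPM in control libraries (log2 fold change -0.75, limma adjusted p = 0.093).

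Of 4 genes grouped here under anaphase control, 3 fell, where 7.59% of all genes tested did. Ube2c, the ubiquitin-conjugating enzyme of the anaphase-promoting complex, was at 15.1, 14.4 and 7.32 TPM in treated and 28.1, 44.3, 28.6 and 29.7 TPM in control libraries. Its treated mean was 0.375-fold the control mean, and its log2 fold change was -1.38 (SE 0.26, limma adjusted p = 0.00354). Cdc20, the activator of that complex, was at 7.48, 8.87 and 3.88 TPM in treated and 15.6, 22.6, 15.7 and 13.5 TPM in control libraries, a log2 fold change of -1.24 (SE 0.26, limma adjusted p = 0.00809). For both genes the treated and control libraries were clearly apart. Cdca3, counted in this group although it helps degrade the inhibitor of mitosis Wee1, fell by 1.06 (limma adjusted p = 0.0103).

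Pttg1, which encodes securin, the inhibitor of separase, did not pass the test. It was the most abundant of the 38 genes, at 111, 108 and 64.2 TPM in treated and 113, 122, 122 and 114 TPM in control libraries. Treated 1 and 2 lay just below the lowest control library, and only the third treated library was far below. The log2 fold change was -0.36 (SE 0.21, limma adjusted p = 0.267). Its share of the summed level of the 38 genes was 25.8% to 29.3% in treated and 18.3% to 21.0% in control libraries. Without Pttg1 the other 37 genes summed to 268, 310 and 158 TPM in treated and 473, 546, 477 and 429 TPM in control libraries, a treated mean 0.510-fold the control mean, against 0.567-fold with it.

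Kinesin motors fell in 4 of 5 cases, where 7.59% of all genes tested fell. All 5 had every treated library below every control library, as 25.7% of all genes tested did. Kif2c, which takes microtubules apart at centromeres, had the lowest ratio of means among the 38, 0.324-fold. It was at 1.74, 2.20 and 1.01 TPM in treated and 4.51, 6.65, 4.90 and 4.31 TPM in control libraries, a log2 fold change of -1.21 (SE 0.24, limma adjusted p = 0.00549). At such low levels the pseudocount shrinks the fold change, which was -1.61 with a pseudocount of 0.1. Kif20a, a kinesin of the central spindle, fell by 1.12, Kif23, a subunit of centralspindlin, by 0.93, and Kif4, a chromokinesin, by 0.86 (limma adjusted p = 0.01, 0.0134 and 0.0248). Kif23 was at 8.01, 6.42 and 7.56 TPM in treated and 14.2, 11.3, 16.8 and 18.0 TPM in control libraries, and the third treated library was not the lowest there. Its call was lost with mitochondrial sequence left out (limma adjusted p = 0.0608) and with the highest transcript row in place of the sum (limma adjusted p = 0.0883). Of the alternatives other than the replicate block, Kif23 lost its call in 5 of 17 and Kif4 in 5 of 16. Kif11, the motor that pushes spindle poles apart, was at 7.96, 8.85 and 4.05 TPM in treated and 11.6, 10.4, 10.97 and 11.2 TPM in control libraries (log2 fold change -0.65, limma adjusted p = 0.0901).

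Among spindle assembly and cytokinesis genes, 5 of 6 fell, where 7.59% of all genes tested did. Prc1, which bundles microtubules of the central spindle, was at 14.1, 13.3 and 6.71 TPM in treated and 27.4, 29.0, 25.6 and 24.3 TPM in control libraries, a log2 fold change of -1.22 (SE 0.24, limma adjusted p = 0.00503). Anln, the actin-binding anillin of the cleavage furrow, was at 9.88, 5.70 and 4.43 TPM in treated and 16.0, 16.3, 16.3 and 17.9 TPM in control libraries, a log2 fold change of -1.26 (SE 0.24, limma adjusted p = 0.00403). The 4 control libraries were close together for both genes, and the treated libraries differed more among themselves. Hmmr, a hyaluronan receptor that also binds spindle microtubules, fell by 1.05, Tpx2, which activates Aurora A, by 0.89, and Ect2, the exchange factor that starts the furrow, by 0.83 (limma adjusted p = 0.0103, 0.0296 and 0.045). Ect2 lost its call in 8 of those 17 alternatives and Tpx2 in 5, and both lost it with the block (limma adjusted p = 0.259 and 0.192). Their limma adjusted p was 0.0752 and 0.0524 without the third treated library. Nusap1, a microtubule-stabilising protein, was at 3.57, 5.78 and 3.29 TPM in treated and 5.79, 5.57, 6.19 and 5.58 TPM in control libraries, so that treated 2 lay inside the control range (log2 fold change -0.41, limma adjusted p = 0.232).

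**Figure D3:**
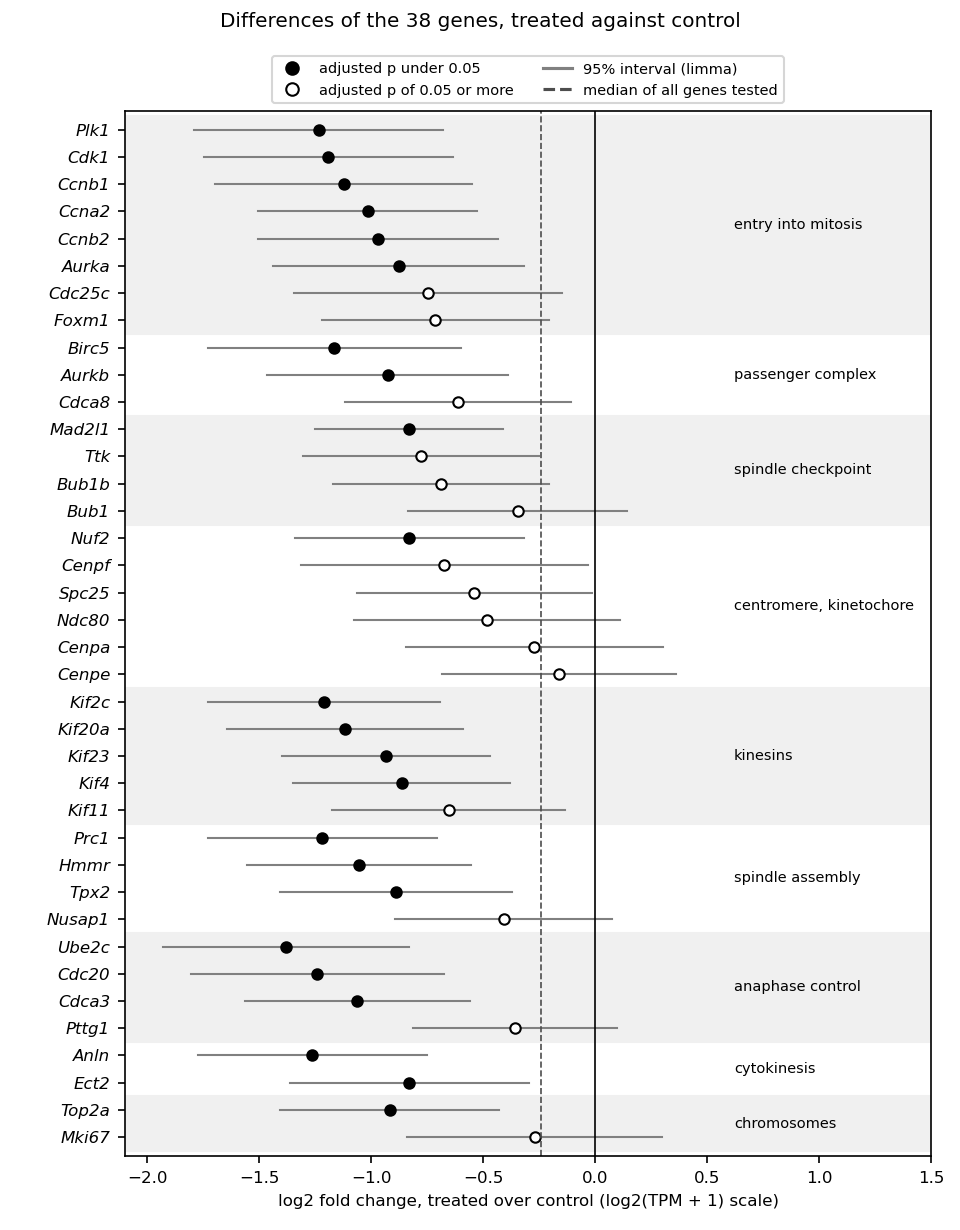
Log2 fold change of each of the 38 genes, treated over control, on the log2(TPM + 1) scale with its 95% interval from limma; filled points passed an adjusted p of 0.05 and the dashed line is the median of all 14967 genes tested. All 38 estimates lie below 0, from -1.38 for Ube2c to -0.16 for Cenpe (0.02 with median-of-ratios scaling), and 5 of the 6 centromere and kinetochore genes have open points.

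The chromosomal passenger complex corrects faulty attachments through the kinase Aurora B. Birc5, its survivin subunit, was at 9.80, 14.9 and 6.50 TPM in treated and 24.7, 31.1, 21.9 and 17.7 TPM in control libraries, a log2 fold change of -1.17 (SE 0.26, limma adjusted p = 0.0117). Aurkb, the kinase itself, fell by 0.93 (limma adjusted p = 0.0294). Cdca8, the borealin subunit, was at 5.75, 7.71 and 4.73 TPM in treated and 12.1, 11.2, 7.59 and 8.37 TPM in control libraries, so that treated 2 overlapped control 3 (log2 fold change -0.61, limma adjusted p = 0.0988). Both calls were lost without the third treated library, at an adjusted p of 0.0622 for Birc5 and 0.0731 for Aurkb.

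Spindle checkpoint genes passed the test in 1 of 4 cases, where 7.59% of all genes tested fell. Mad2l1, which blocks Cdc20 until chromosomes are attached, was at 16.0, 17.8 and 12.3 TPM in treated and 25.8, 30.02, 28.2 and 27.4 TPM in control libraries, a log2 fold change of -0.83 (SE 0.20, limma adjusted p = 0.0144). Ttk, the Mps1 kinase that starts the checkpoint signal, and Bub1b, the BubR1 subunit of the mitotic checkpoint complex, showed no overlap between groups but missed the threshold (log2 fold changes -0.78 and -0.69, limma adjusted p = 0.0542 and 0.06). Bub1b passed in 7 of the same 17 alternatives, among them with mitochondrial sequence left out (limma adjusted p = 0.033). Bub1, a checkpoint kinase at the kinetochore, was at 1.38, 2.35 and 1.35 TPM in treated and 2.12, 2.28, 2.78 and 2.36 TPM in control libraries, where treated 2 lay within the control values (log2 fold change -0.35, limma adjusted p = 0.315).

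Centromere and kinetochore genes had the least negative median of the 9 role groups, a log2 fold change of -0.51. The test was passed by 1 of 6, where 7.59% of all genes tested fell. Nuf2, a subunit of the NDC80 complex that grips microtubules, was at 3.29, 3.82 and 1.79 TPM in treated and 6.10, 6.47, 6.06 and 4.94 TPM in control libraries (log2 fold change -0.83, SE 0.24, limma adjusted p = 0.0378). Nuf2 lost its call in 7 of the 17 alternatives other than the replicate block. Among them was the fit without the third treated library (limma adjusted p = 0.0594). Of the partners of Nuf2 in the NDC80 complex among the 38, neither Ndc80 nor Spc25 passed. Ndc80 was at 3.55, 6.51 and 2.07 TPM in treated and 6.26, 4.75, 6.28 and 5.21 TPM in control libraries, a log2 fold change of -0.48 (limma adjusted p = 0.252). Spc25 showed no overlap, with treated values up to 5.89 TPM and control values from 6.14 TPM, and a log2 fold change of -0.54 (limma adjusted p = 0.154). Whether subunits of the complex differed from each other was not tested.

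Cenpa, the histone variant that marks centromeres, was at 21.5, 32.7 and 12.7 TPM in treated and 27.7, 30.8, 21.7 and 22.4 TPM in control libraries. Treated 2 was its highest library and the third treated its lowest, and the log2 fold change of -0.27 (limma adjusted p = 0.507) changed sign to 0.06 without the third treated library. Cenpe, a kinesin of the kinetochore, had a log2 fold change of -0.16 (limma adjusted p = 0.673), with control 2 its lowest library at 1.34 TPM. Cenpf, a kinetochore and nuclear matrix protein, was the least abundant of the 38, at 1.07, 1.21 and 0.58 TPM in treated and 4.39, 1.16, 2.09 and 1.51 TPM in control libraries (log2 fold change -0.67, limma adjusted p = 0.147).

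Of the 2 genes of condensed chromosomes, 1 fell, where 7.59% of all genes tested did. Top2a, the topoisomerase that untangles sister DNA, was at 20.6, 24.6 and 12.9 TPM in treated and 37.3, 35.6, 42.4 and 30.7 TPM in control libraries, a log2 fold change of -0.92 (SE 0.23, limma adjusted p = 0.0193). Mki67, which encodes the proliferation marker Ki-67, was at 5.78, 9.41 and 3.87 TPM in treated and 9.11, 5.74, 8.25 and 7.09 TPM in control libraries. The groups overlapped, with treated 2 the highest library, the third treated the lowest and control 2 just below treated 1. The log2 fold change was -0.27 (95% interval -0.84 to 0.30, limma adjusted p = 0.504). Mki67, Ndc80 and Cenpa were the 3 genes of the 38 that peaked in treated 2, which was also the library with the highest T cell marker sum, 2921 TPM. Whether the T cell level had a part in this was not tested.

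Genes of the same pathway that are not among the 38 were also lower where they passed the test. Of 68 other mitosis genes 66 passed the filter, and 16 were called lower and 0 higher. The 16 are 24.2% of those tested, against 7.59% of all genes. In 30 of the 66 every treated library lay below every control library, an order that 25.7% of all genes showed. Their median log2 fold change was -0.49. The list also counts Ccnd2, a cyclin of G1 and not of mitosis (log2 fold change 0.43, limma adjusted p = 0.246). The 6 genes of this list with the smallest p were Pbk, Iqgap3, Spc24, Espl1, Kif22 and Gtse1. Their log2 fold changes were -1.24, -1.44, -1.18, -1.44, -1.09 and -1.15 (limma adjusted p from 0.00148 to 0.00488). Pbk, a kinase of mitotic cells, was at 5.18, 4.35 and 4.67 TPM in treated and 11.3, 12.2, 13.8 and 13.1 TPM in control libraries. Espl1, the separase that securin holds in check, was at 2.01, 2.48 and 6.24 TPM in treated and 11.2, 9.31, 11.5 and 10.2 TPM in control libraries. Spc24, the fourth subunit of the NDC80 complex, was at 6.63, 7.57 and 4.52 TPM in treated and 16.5, 18.4, 12.9 and 13.4 TPM in control libraries. Pbk, Espl1 and Spc24 did not overlap between the groups, which their choice by smallest p makes likely. For Espl1 the third treated library was the highest treated one. The call of Espl1 was lost with mitochondrial sequence left out and with median-of-ratios scaling (limma adjusted p = 0.068 and 0.0711).

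Genes of DNA replication, which act in the S phase before G2, had a median log2 fold change of -0.37. Of 46, all tested, 4 fell and 0 rose, which is 8.70% of the list, against 7.59% of all genes. That count depended on the setting: 9 fell with mitochondrial sequence left out, where 7.98% of all genes fell, 8 fell with robust moderation, where 9.82% did, and 0 fell without control 1, 2 or 3. The 4 that fell in the main fit were Gins1, of the replicative helicase, Rfc5 and Rfc4, of the clamp loader, and Tyms, the thymidylate synthase. Their log2 fold changes were -0.78, -0.73, -0.64 and -0.75 (limma adjusted p = 0.0283, 0.0362, 0.0498 and 0.0425). Rrm1, a ribonucleotide reductase subunit, and Tk1, thymidine kinase, stood just outside the threshold at -0.71 and -0.68 (limma adjusted p = 0.0509 and 0.0549). The summed level of the 38 mitotic genes was 0.4504, 0.443 and 0.398 of the S phase sum in treated libraries, against 0.564, 0.623, 0.571 and 0.562 in control libraries. This ratio does not depend on the mitochondrial share, and the groups did not overlap.

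**Figure D4:**
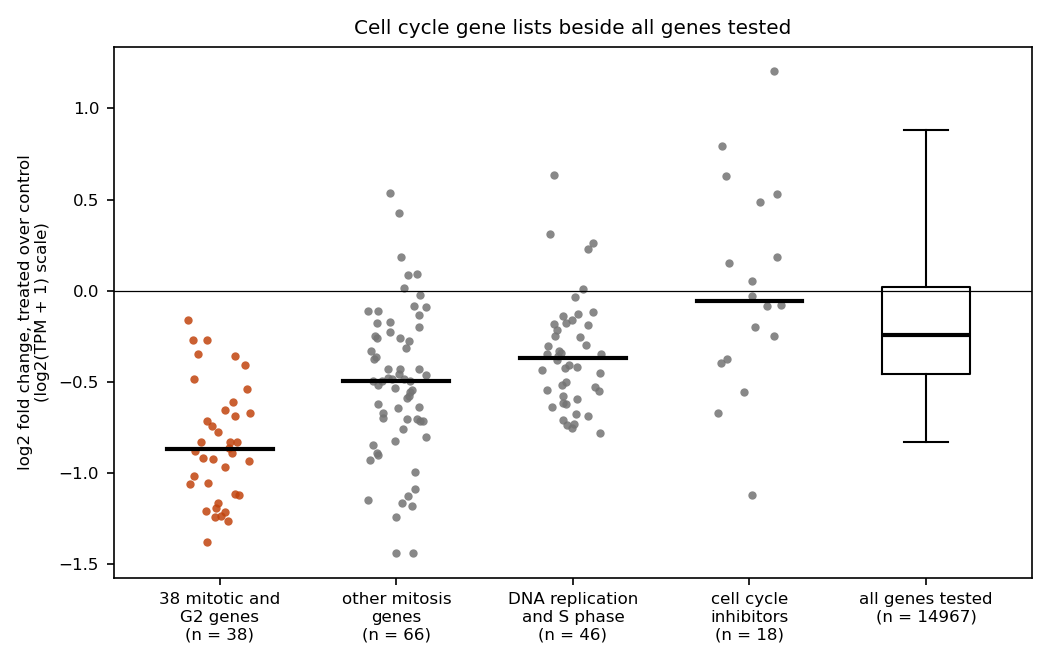
Log2 fold changes, treated over control, of single genes (points) in 4 cell cycle lists with the list median (line), beside all 14967 genes tested (box, quartiles; whiskers, 5th to 95th percentile). The median of the 38 mitotic and G2 genes is -0.87, against -0.49, -0.37 and -0.06 in the other lists and -0.24 over all genes.

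Inhibitors of the cell cycle did not move as a group. Of 20 genes 18 were tested, 1 rose and 2 fell. These are 5.56% and 11.1% of those tested, near the 4.30% and 7.59% of all genes, so the counts do not set the list apart. The list's median was -0.06 on the log2 scale. It also counts Mdm2, which inhibits p53 and not the cell cycle (log2 fold change -0.25, limma adjusted p = 0.425). Cdkn1a, the p21 inhibitor of cyclin-dependent kinases, was at 19.0, 24.1 and 25.9 TPM in treated and 43.9, 59.1, 65.1 and 39.4 TPM in control libraries, a log2 fold change of -1.12 (SE 0.22, limma adjusted p = 0.00482). Btg1, an antiproliferative gene that resting lymphocytes express, was at 126, 211 and 99.0 TPM in treated and 53.7, 53.5, 71.5 and 60.7 TPM in control libraries, a log2 fold change of 1.20 (SE 0.24, limma adjusted p = 0.00567). Both genes were apart between the groups, in opposite directions. Tob1, a relative of Btg1, fell by 0.67 (limma adjusted p = 0.0429), and Cdkn2c, Cdkn2a and Klf2 did not pass (log2 fold changes -0.55, 0.63 and 0.79).

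Markers of some other cell types were lower in treated libraries, as the mitotic genes were, and those of others were not. Of 12 epithelial and mesothelial markers 10 were tested, 7 fell and 0 rose, none was at 0 in all libraries, and Epcam and Pax8, singled out after their values were seen, stayed at or below 1.5 TPM. Fibroblast markers fell in 4 of 5 tested, macrophage markers in 2 of 11, and erythroid markers in all 4 tested, with 1 further erythroid marker at 0 in every library. None of 8 B and plasma cell markers or 4 neutrophil markers tested was called (median log2 fold changes 0.46 and -0.11). Endothelial markers fell in 2 of 3 tested. All 15 T cell markers rose, as did 1 of 3 dendritic cell markers and 1 of 3 CD4 T cell markers tested. Klrk1, the 1 NK cell marker that passed the filter, also rose, and the other NK cell markers were too low to be tested. Of all genes tested, 7.59% fell and 4.30% rose. Relative to the epithelial and mesothelial sum, the mitotic sum was 0.232, 0.408 and 0.259 in treated libraries, against 0.253, 0.244, 0.254 and 0.239 in control libraries. The control libraries were nearly equal in this ratio, and the treated libraries lay on both sides of them. Relative to the fibroblast sum, the mitotic sum was 1.67 to 3.36 in treated and 1.84 to 2.24 in control libraries. Relative to the macrophage sum, it was 0.0539 to 0.1241 in treated and 0.0401 to 0.1075 in control libraries, so both ratios overlapped. Relative to the T cell sum, the mitotic sum was 0.293, 0.143 and 0.323 in treated and 3.15, 3.20, 4.24 and 2.21 in control libraries. The part of these cell types in the lower mitotic level was not tested.

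**Figure D5:**
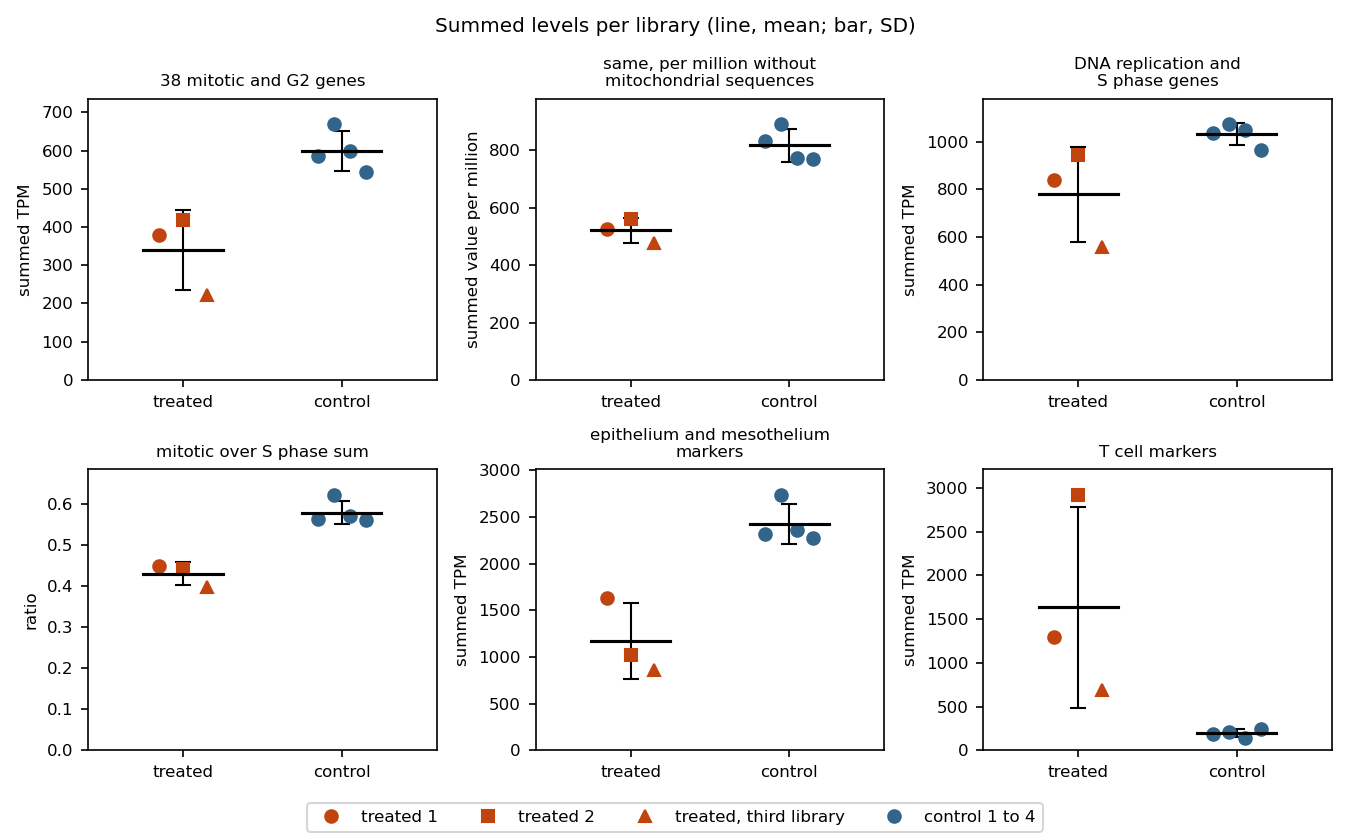
Summed levels per library, treated left of control, with the mean (line) and SD (bar). The 38 mitotic and G2 genes lie between 222 and 418 TPM in treated and between 543 and 668 TPM in control libraries. The groups also stay apart without mitochondrial sequence and relative to S phase genes. Relative to epithelial, fibroblast or macrophage marker sums, which is not drawn, they overlap. The epithelial and T cell marker sums differ in opposite directions.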

How the data were processed

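The authors deposited expression as TPM in a single table of 149132 transcript rows, each named by a gene symbol. Build mm39 and the programs fastp, HISAT2 and StringTie are named per the submitters' processing notes. Their roles and versions, and the program behind the TPM values, are not given in the sources used here. TPM keeps no depth, so no counting interval or detection limit was computed, and values within a library depend on each other. Columns were matched to samples by name, with 0 other columns of values. For 1 treated column only the group could be matched, so it was never paired. TPM was summed per symbol, without 1001 rows that had none (0.307% to 0.618% of TPM).

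The test used log2(TPM + 1), which understates the change of low genes, and kept genes that reached 1 TPM in 3 or more of 7 libraries. It was run in R 4.3.3 with limma 3.58.1 (variance trend, two-sided, Benjamini-Hochberg adjustment, threshold 0.05) and was tested on simulated data. The 38 genes and the comparison lists were chosen with earlier results of these data known. All 38 are named, with up to 6 genes of smallest p from each other cell cycle list and at most 3 genes of each marker list. Ccnd2 and Mdm2 are named besides, to show what their lists hold. Alternatives changed the pseudocount, filter, scaling, variance model, library weights, transcript summing and replicate block, or left out libraries. Promoter windows were taken from RefSeq and matched by symbol.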

Additional observations from a re-analysis of the deposited data

Results flagged for a closer look

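In several genes 1 control library lay far from the other 3, with a gap to the nearest of them above Dixon's 95% critical share of the group's range. In control 2, Ube2c was at 44.28 TPM (28.1 to 29.7 TPM in the other control libraries), Cdk1 at 61.29 TPM (39.6 to 43.1 TPM), Ccnb1 at 19.5 TPM (12.4 to 13.3 TPM) and Kif20a at 10.65 TPM (6.96 to 7 TPM). Hmmr was at 7.25 TPM in control 3 (5.6 to 5.86 TPM in the others), and Cdc25c at 3.96 TPM in control 4 (1.90 to 2.21 TPM). The summed macrophage markers reached 14943.87 TPM in control 3, against 6155 to 7008 TPM in the other control libraries. Of 74 items examined 7 were picked out, 6 of them among the 38 genes. Chance picks about 1 in 20 groups.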

How the results depend on the processing

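The direction of the result for the 38 genes as a list held in all alternatives, while the number that fell ranged widely. It was 19 to 26 of 38 under other pseudocounts, scalings, variance models, library weights or transcript rows, where 6.38% to 28.2% of all genes fell. It was 21 of 31 with a filter at 5 TPM, where 10.1% of all genes fell. With no filter it was 0, and 29 had an unadjusted p under 0.05. The unfiltered fit called 3 genes higher and 4 lower in all, and 0 in every other cell cycle list. A pseudocount of 5 gave a median log2 fold change of -0.55. Leaving out mitochondrial sequence gave 1287 genes higher in all, 1 other mitosis gene higher, 9 S phase genes lower and 1 higher, and 4 inhibitors higher. Median-of-ratios scaling gave 1306 genes higher in all, 1 other mitosis gene higher, and 4 inhibitors higher and 1 lower, with Cenpe at 0.0194. With those scalings 8.09% and 8.73% of all genes rose, and 7.98% and 6.38% fell. S phase genes lower numbered 8 with the 5 TPM filter and 8 with robust moderation. Library weights gave 2246 genes higher and 4221 lower in all, 6 and 26 other mitosis genes, 5 and 7 S phase genes, and 7 and 4 inhibitors, with a median of -0.57 and signs turned for Cenpa (0.28), Mki67 (0.12) and Ndc80 (0.0293). The causes were not tested.

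Leaving out 1 library at a time gave 16 (without the third treated library) to 24 of the 38 lower and a median of -0.996 to -0.66. All genes lower ranged from 585 (without control 2) to 2909 (without treated 1) and all genes higher from 388 (without treated 2) to 794. Other mitosis genes ranged from 11 to 20 lower and 0 to 1 higher, S phase genes from 0 to 6 lower and 0 to 1 higher, and inhibitors from 1 to 3 lower and 1 to 2 higher. Cenpa ranged from -0.58 without treated 2 to 0.0629 without the third treated library. Without that library and control 3 together, chosen after seeing the data, 9 of the 38 fell (median -0.59), 267 genes fell in all, with 6 other mitosis genes, 0 S phase genes (1 rose) and 1 inhibitor, and Cenpe (0.0271) and Mki67 (0.0351) turned sign.

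The labels number samples of both groups from 1 to 3, and nothing says that a number pairs libraries. Since 1 treated column could not be matched to a sample, only numbers 1 and 2 could be used. The deviations of same-numbered libraries correlated at -0.0195 and -0.0896. A fit on those 4 libraries with the replicate number as a block gave 5 of the 38 lower, 135 genes lower in all, 6 other mitosis genes, 0 S phase genes, 1 inhibitor lower and 2 higher, with Cenpe at 0.13 and Mki67 at 0.0254. Since TPM holds no depth, the precision of low genes such as Cenpf and Cdc25c is unknown.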
